A study of Homo sapiens with 12 samples.

Results

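Poly(A) RNA of sorted H9 cells was compared between an antisense oligonucleotide against LINE1 (ASO-L1) and a non-targeting antisense oligonucleotide (ASO-Ctr), with 4 libraries each, or 8 of the 12 libraries of the series. The other 4 libraries, of cells given the sense oligo of LINE1 (sO-L1), entered the model of the spread and are quoted only as values beside the genes described. H9 is an established human embryonic stem cell line, and a single line was used, kept in RSeT medium, a commercial medium meant to hold a naive-type state. Each oligo carried a fluorescein label, was given at 25 nM by lipofection, and the fluorescent cells were sorted at 48 h. All 3 groups also received trans-ISRIB (0.7 uM), which restores translation downstream of phosphorylated eIF2, the caspase inhibitor emricasan (5 uM) and the ROCK inhibitor Y-27632 (10 uM), which were withdrawn after 24 h. The genes named below were picked in part by their values, as given with the processing of the data. The raw count table was taken as a whole, and 17264 of its 53717 entries were expressed enough to be tested. Of these entries, 0 count LINE1 RNA itself, and what happened to the target of the oligo is not known from these values.

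LINE1 is a retrotransposon family that still moves in the human genome. Its RNA has been described as a nuclear scaffold in embryonic stem cells, where it works with nucleolar proteins. An antisense oligo with a DNA core pairs with its target RNA and directs RNase H to cut it, while other proteins of the cell can bind the oligo itself. Embryonic stem cells hold p53 and the integrated stress response ready, the latter a programme in which phosphorylated eIF2 lowers translation in general and raises that of the transcription factor ATF4, whose targets import and make amino acids and, through CHOP, prepare cell death.

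Total counts lay between 22.8 and 41.5 M reads (M stands for 1000000) in the 8 libraries, with the shallowest libraries in replicate 1 of both groups (22.8 and 27.4 M reads), and mitochondrially encoded genes took 5.59 to 6.24% of them. A gene without any read may still have up to 3 reads' worth of RNA, or 0.0716 to 0.128 CPM (counts per M reads, with library sizes scaled by the TMM method), and such a floor covers counting error only. Nothing in the labels ties the replicates to separate cultures, and the p-values measure only the spread between these samples, which may be technical. Replicates differed by more than counting error, with a chi-squared per gene of 3.18 to 12.9 among ASO-Ctr libraries and 5.39 to 29.0 among ASO-L1 libraries. The cells had the markers of embryonic stem cells at high levels, with POU5F1 at 1168 ± 63.3 CPM and LIN28A at 2032 ± 81.8 CPM in ASO-Ctr (mean ± SD, n = 4). KLF17, a defining marker of the naive state, had 25 reads over the 8 libraries and at most 0.239 CPM in any of them, while DNMT3B, which is high in the primed state, was at 2505 ± 154 CPM in ASO-Ctr. Of markers of other cell types, CDX2 and VGLL1 of trophectoderm, LUM of fibroblasts, and LEUTX and DUXA of the 8-cell embryo had 0 reads in each of the 8 libraries. Other markers of these cell types did have reads. GATA3 of trophectoderm had 17 and TPRX1 of the 8-cell embryo 20 over the 8 libraries. Of 22 trophectoderm markers 10 were expressed enough to be tested, and of 16 fibroblast markers 11. The fibroblast markers summed to 318 to 340 CPM in ASO-Ctr.

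The antisense oligo was followed by many small differences and few large ones. Of the 17264 genes tested, 7652 (44.3%) were called at an adjusted p under 0.05, 3668 of them higher (21.2%) and 3984 lower (23.1%) with ASO-L1, and these shares are the background for every count below. Only 429 genes (2.48%) were both called and over 2-fold higher, and 246 (1.42%) over 2-fold lower, and called genes had a median log2 change of 0.37 in size. The 4 libraries of ASO-L1 lay wholly above or wholly below the 4 of ASO-Ctr for 5743 genes (33.3%), of which 5349 were called. For 3999 genes (23.2%) the 95% interval of the fold change stayed within 1.2-fold in either direction. Each interval holds for its gene alone, was not adjusted over genes, and rests on the spread between these samples. The median log2 change over all genes was -0.00279, and it was -0.000638 to 0.0105 under the 3 other scalings of the libraries. Without ASO-L1 replicate 4 the number called over 2-fold lower was 370. For gene lists, where a count of calls moved by over 1.5 times in any of 21 alternative fits (9 with other settings and 12 without a replicate number or a library), its range over them stands in brackets after it.

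The share called rose with the level of the gene, from 14.5% of 3453 genes under 1 CPM to 41.0% of 4472 genes at 1 to 10 CPM, 56.2% of 7103 at 10 to 100 CPM and 59.2% of 2236 at 100 CPM or more. Large changes were found mostly among low genes. Of the 2236 most abundant genes only 8 were called higher and 4 lower by over 2-fold. By kind of gene, 104 of 381 long noncoding RNAs rose (27.3%) and 37 fell (9.71%), against 3145 (22.5%) and 3721 (26.6%) of 13992 protein-coding genes. The median level was 1.13 CPM for the former and 22.2 CPM for the latter, and the part of level in these shares was not tested. Of 53 snoRNA entries 11 rose (20.8%, near the share over all genes) and 0 fell (0 also with DESeq2, with limma-voom and at an unadjusted p under 0.05 in edgeR). Poly(A) libraries catch snoRNAs only in part, and their median level was 0.542 CPM, so these are counts of low entries.

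**Figure D1:**
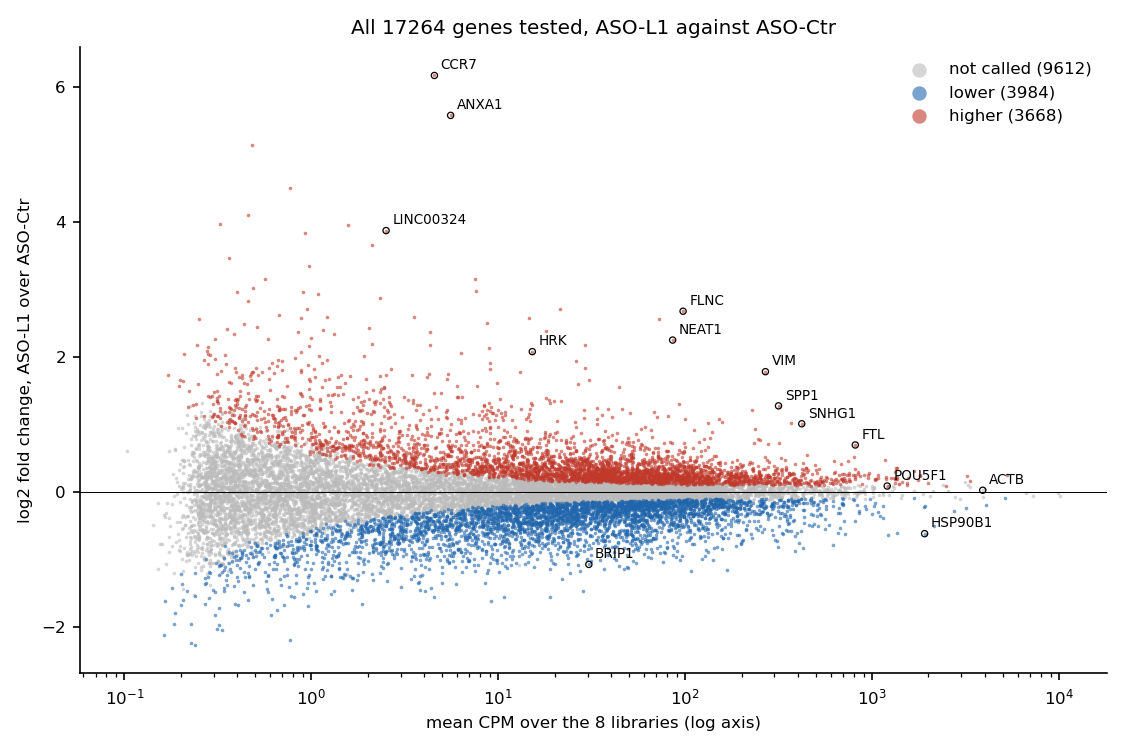
Log2 fold change of ASO-L1 over ASO-Ctr (vertical axis) against the mean CPM of the 8 libraries (horizontal, log axis) for the 17264 genes tested, 1 point each, with called genes in red (3668 higher) and blue (3984 lower) and 14 named genes ringed. The cloud narrows as the level rises, and CCR7 and ANXA1 stand above all other genes of at least 1 CPM.

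Genes were classed by their mean CPM over the 8 libraries, so that a gene close to silent in ASO-Ctr enters a class through its ASO-L1 values. Such a gene can also pass the filter on low counts through its ASO-L1 values alone. The separation of its groups is therefore given as a description and is no further support for its call. Among genes at 1 to 10 CPM, CCR7 and ANXA1 had the largest rises. CCR7, a chemokine receptor, was at 0.214, 0.0955, 0 and 0.145 CPM in ASO-Ctr replicates 1 to 4 and at 18.02, 5.41, 8.63 and 3.88 CPM in ASO-L1 replicates 1 to 4 (log2 6.16, SE 0.30, adjusted p = 1.03e-09, edgeR). ANXA1, a phospholipid-binding protein of the inflammatory response, went from 0.385, 0.286, 0.0630 and 0.116 to 20.9, 9.43, 8.69 and 4.61 CPM (log2 5.57, SE 0.26). Both held their highest value in ASO-L1 replicate 1 and their lowest in replicate 4, and in neither did the groups overlap. Low levels in ASO-Ctr were also seen for STMN4, a stathmin that takes microtubules apart (0.169 ± 0.0910 against 2.97 ± 2.17 CPM with ASO-L1), and for TWIST1, a transcription factor of the mesenchyme (0.311 ± 0.279 against 3.89 ± 2.69 CPM). LINC00324, a long noncoding RNA, was at 0.342, 0.215, 0.252 and 0.435 CPM in ASO-Ctr and at 6.09, 4.63, 5.33 and 2.78 CPM in ASO-L1 (log2 3.87, SE 0.24, adjusted p = 7.40e-09). The sO-L1 libraries were at 0.262 to 0.458 CPM for this RNA, a range that overlapped ASO-Ctr. All 4 ASO-L1 libraries of each of these genes stood above every ASO-Ctr library.

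At 10 to 100 CPM the top 8 rises were FLNC and AHNAK of the cytoskeleton, DDIT3, ATF5 and TRIB3 of the stress response, the cell cycle inhibitor CDKN1A, the death inducer HRK and the noncoding RNA NEAT1. HRK, a BH3-only protein that binds and blocks survival proteins of the BCL2 family, was at 4.58, 5.06, 7.56 and 5.80 CPM in ASO-Ctr and 34.5, 22.1, 22.7 and 19.3 CPM in ASO-L1 (log2 2.08, SE 0.16, adjusted p = 5.20e-08). FLNC, an actin cross-linker of muscle, was at 24.7, 22.5, 26.2 and 23.6 CPM in ASO-Ctr and 327, 142, 131 and 81.6 CPM in ASO-L1, so that ASO-L1 replicate 1 stood at over 2 times any other library. AHNAK, a giant scaffold protein under the membrane, went from 6.85, 5.28, 3.94 and 4.81 to 73.6, 31.2, 27.9 and 18.2 CPM with the same order of replicates. In sO-L1 the 3 genes stood at 6.44 to 8.44, 22.9 to 26.9 and 3.93 to 7.504 CPM in turn.

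Of abundant genes, at 100 CPM or more, 8 were called over 2-fold higher, which are VIM, SPP1, MALAT1, RHOB, CER1, SLC3A2, MDM2 and SNHG1. SPP1, the secreted matrix protein osteopontin, was at 134, 152, 223 and 243 CPM in ASO-Ctr and 445, 373, 512 and 441 CPM in ASO-L1 (log2 1.27, SE 0.09), and at 204 to 314 CPM in sO-L1, a range that overlapped ASO-Ctr and lay below every ASO-L1 library. RHOB, a small GTPase of endosomes that stress induces, went from 84.8, 98.4, 106 and 97.2 to 225, 198, 227 and 171 CPM (log2 1.08, SE 0.07, adjusted p = 1.14e-08). CER1, a secreted antagonist of Nodal and BMP, went from 62.3, 89.8, 130.1 and 131 to 137, 170.1, 296 and 248 CPM, with sO-L1 at 78.5 to 156 CPM. None of these 3 genes had overlapping groups.

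The largest falls were smaller in size than the largest rises. At 10 to 100 CPM they included SYN3 and ARHGAP28. SYN3, a synapsin of synaptic vesicles, was at 19.0, 16.9, 13.5 and 14.8 CPM in ASO-Ctr and 4.00, 5.97, 5.46 and 6.11 CPM in ASO-L1 (log2 -1.55), and ARHGAP28, which switches off RhoA, at 38.4, 37.4, 44.9 and 45.2 and 9.30, 15.9, 15.7 and 19.2 CPM (log2 -1.46). For both of these genes ASO-L1 replicate 1 held the lowest value, and the highest ASO-L1 library was below the lowest ASO-Ctr library. Also among the largest falls at this level were 5 other genes, which are PILRB, an immune receptor, ME1, the malic enzyme that supplies NADPH, DENND6A, an activator of a RAB protein, GLE1, an mRNA export factor, and LPP, a LIM protein of focal adhesions, with log2 changes of -1.29, -1.19, -1.21, -1.17 and -1.14.

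Among genes at 1 to 10 CPM the largest falls were of FRMPD4, SLC16A3, SRGAP1, CDH13, SAMD12, GDA and the noncoding RP11-3B12.1 and RP11-923I11.7. SRGAP1, a GTPase activator downstream of Slit and Robo, was at 5.95, 6.71, 7.59 and 6.93 CPM in ASO-Ctr and 1.51, 2.67, 1.99 and 3.04 CPM in ASO-L1 (log2 -1.55, adjusted p = 2.97e-07). SLC16A3, the exporter of lactate, was at 18.4, 28.0, 6.61 and 3.80 and 3.46, 7.23, 2.71 and 3.07 CPM, and here the groups overlapped, with ASO-Ctr itself spread over a wide range. Among abundant genes EIF4G3, a scaffold of the cap-binding complex of translation, fell from 153, 159, 139.7 and 141 to 47.1, 77.8, 64.3 and 75.0 CPM (log2 -1.17, SE 0.09). ALDH7A1, of lysine breakdown, SLC25A13, the mitochondrial carrier of aspartate and glutamate, DST, a linker of cytoskeletal filaments, DHCR7, the last enzyme of cholesterol synthesis, LITAF, a protein of late endosomes, and CDC16, a subunit of the anaphase-promoting complex, followed, with log2 changes of -1.01 for ALDH7A1, just past 2-fold for SLC25A13, and -0.95, -0.90, -0.87 and -0.86 for the others in turn.

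**Figure D2:**
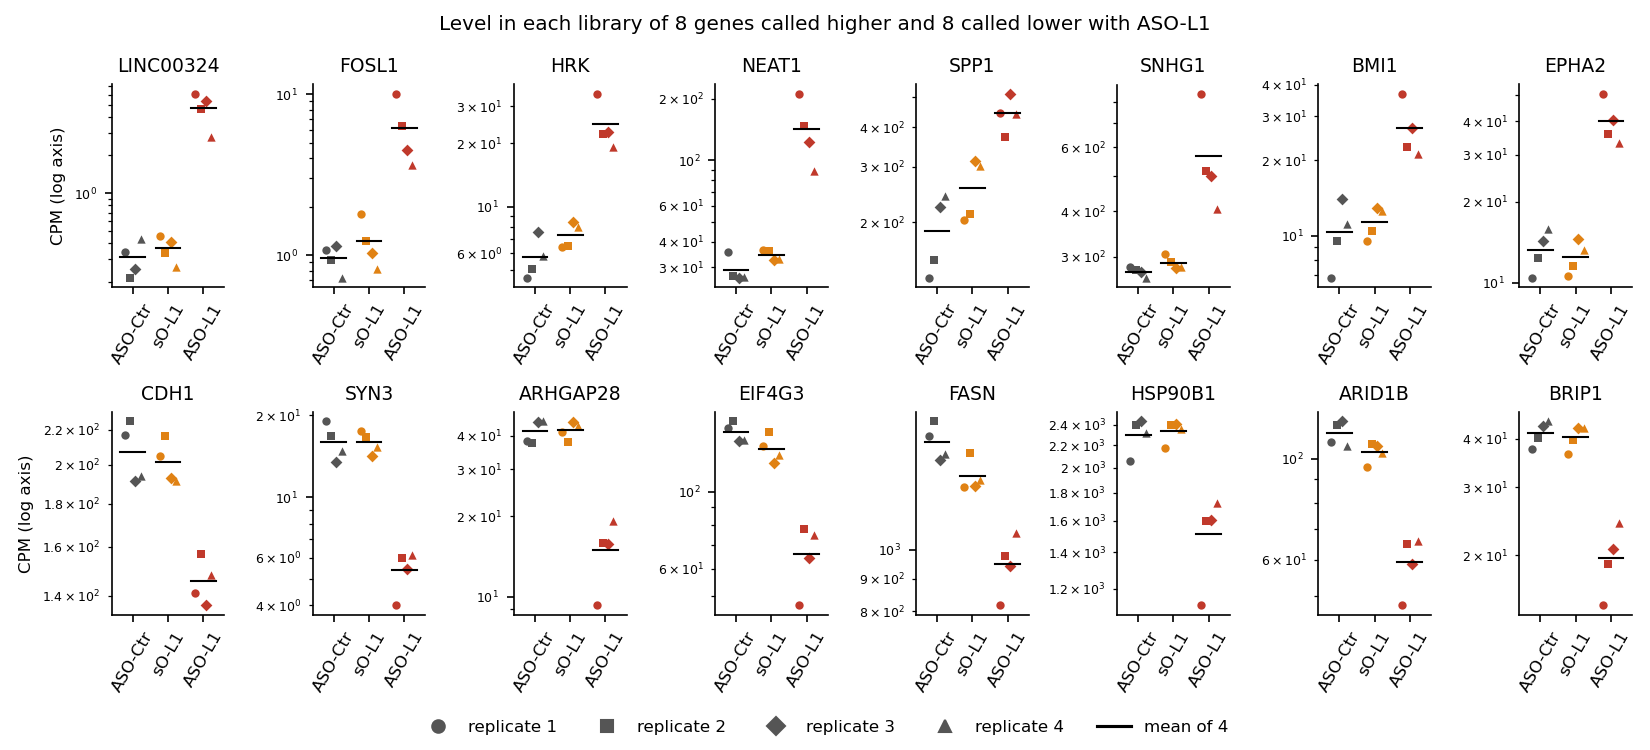
CPM in each library (log axis, scale differs between panels) of 8 genes called higher (upper row) and 8 called lower (lower row), for ASO-Ctr, sO-L1 and ASO-L1, with 1 marker shape per replicate number and a bar at the mean of 4. In each panel the 4 ASO-L1 libraries lie apart from the 4 ASO-Ctr libraries, and for NEAT1, SNHG1 and BRIP1 replicate 1 is farthest from the control.

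Most genes of the ATF4 and CHOP axis rose. Of 18 tested members 14 rose and 3 fell (1 to 3) (background 21.2 and 23.1%), with a median log2 change of 0.67. ATF4, the factor at the head of the programme, rose at the RNA level from 290.1, 249, 264 and 269 to 420.1, 376, 374 and 353 CPM (log2 0.51, SE 0.04, adjusted p = 6.57e-08). ATF5, a related factor, went from 22.7, 18.9, 20.4 and 19.2 to 191, 115, 109 and 80.6 CPM and TRIB3, a pseudokinase that dampens the programme, from 13.1, 9.83, 8.82 and 8.64 to 81.0, 45.6, 36.3 and 29.0 CPM. DDIT3, the factor CHOP itself, went from 4.97, 3.53, 3.46 and 4.35 to 41.2, 23.5, 20.6 and 15.8 CPM (log2 2.57, SE 0.15), while sO-L1 held 4.61 to 6.30 CPM. SESN2, which lowers growth signalling when amino acids are short, went from 30.6, 24.2, 18.5 and 18.6 to 79.1, 55.5, 45.2 and 38.4 CPM (log2 1.23). The groups did not overlap for any of these 5 genes, and ASO-L1 replicate 1 held the highest value of each. The 3 that fell were DDIT4, an inhibitor of mTOR, and XBP1 and ATF6, the transcription factors of the other branches of the unfolded protein response, at log2 -0.29, -0.20 and -0.18. The calls of DDIT4 and ATF6 were lost in 15 and 4 of 21 alternative fits (highest adjusted p = 0.575 and 0.0928).

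The promoters of some of these genes hold the core of the element that ATF4 binds together with a C/EBP partner. It was searched as TGATGNAA on both strands, from 250 bases before to 50 bases after each start site of the RefSeq promoter table (GRCh38.p14), and 3.62% of 35116 promoters held it. Counted by gene, as the lists are below, 311 of the 10856 tested genes with a listed promoter (2.86%) had it in at least 1 of their promoters. Of the 18 tested genes of the axis 4 had it in a listed promoter (ATF3, CEBPG, CHAC1 and PPP1R15B). Of 21 transporter genes with a listed promoter 6 had it, SLC3A2 among them, and of 16 genes of serine and asparagine synthesis 2, ASNS and MTHFD1L. The stretches below, shown because their genes rose, are written 5′ to 3′ on the strand of the gene and end at or before its start site, with the match in capitals. In CHAC1 the match reads on the other strand. A match is a description of the letters and was not tested for binding.
CHAC1 (chr15:40953221-40953320, plus strand): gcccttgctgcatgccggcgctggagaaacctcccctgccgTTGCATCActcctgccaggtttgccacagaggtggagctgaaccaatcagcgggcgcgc
CEBPG (chr19:33374013-33374112, plus strand): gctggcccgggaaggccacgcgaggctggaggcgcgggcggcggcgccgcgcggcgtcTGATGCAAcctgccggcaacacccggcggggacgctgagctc
ATF3 (chr1:212565170-212565269, plus strand): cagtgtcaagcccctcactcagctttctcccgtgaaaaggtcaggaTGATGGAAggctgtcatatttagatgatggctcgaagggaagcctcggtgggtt
ASNS (chr7:97872423-97872522, minus strand): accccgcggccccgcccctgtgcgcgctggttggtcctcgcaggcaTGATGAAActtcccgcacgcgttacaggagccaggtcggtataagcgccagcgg
CHAC1, which breaks down glutathione, rose by log2 0.49 (adjusted p = 6.89e-06), CEBPG, a dimer partner of ATF4, by 0.74 (adjusted p = 3.55e-06), ATF3 by 1.83 (adjusted p = 1.63e-08) and ASNS, asparagine synthetase, by 0.18 (adjusted p = 0.00587). The groups overlapped for CHAC1 and ASNS, and both lost their call without the replicate term in the model (adjusted p = 0.138 and 0.135).

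The suppliers of amino acids, which ATF4 also governs, moved in both directions. Of 25 transporter genes 10 rose and 6 fell, with a median log2 change of 0.12. SLC3A2, the heavy chain shared by several exchangers, went from 254, 227, 239 and 247 to 651, 442, 485 and 408 CPM (log2 1.02, SE 0.07). SLC7A5, its leucine-importing partner, rose by 0.12 (adjusted p = 0.028), a call lost in 6 of 21 alternative fits, while SLC7A8, another light chain, and SLC36A4, an amino acid sensor of the lysosome, had log2 changes of -0.72 and -0.62. Of 20 cytosolic aminoacyl-tRNA synthetases, which charge tRNAs, 9 rose and 4 fell. CARS and HARS were the most raised, at log2 0.34 and 0.32, and the 4 that fell were DARS, TARS, SARS and LARS, at -0.48, -0.40, -0.34 and -0.27. In serine, one-carbon and asparagine synthesis 9 of 24 genes rose (5 to 10) and 8 fell (3 to 8). MTHFD2, of the mitochondrial folate cycle, went from 293, 281, 279.6 and 281 to 486, 371, 378 and 347 CPM (log2 0.47), and PSAT1, of serine synthesis, rose by 0.26, while CTH, the last enzyme of cysteine synthesis, fell by 0.45.

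More chaperones of the endoplasmic reticulum fell than rose. Of 30 genes, 14 fell and 3 rose, with a median log2 change of -0.12, and over the 21 alternative fits 11 to 18 were called lower. HSP90B1, the HSP90 of this compartment, was at 2062, 2395, 2434 and 2322 CPM in ASO-Ctr and 1119, 1601, 1603 and 1722 CPM in ASO-L1 (log2 -0.62, SE 0.06, adjusted p = 4.06e-07). HSPA5, also called BiP, which binds unfolded proteins and holds the stress sensors inactive, was at 1254, 1387, 1307 and 1232 and 868, 1039.7, 1023 and 1038 CPM (log2 -0.39, SE 0.04, adjusted p = 2.64e-06). In both genes every ASO-L1 library lay below every ASO-Ctr library, with replicate 1 lowest. DNAJC3, a cochaperone that restrains the eIF2 kinase PERK, fell by 0.44 on the log2 scale, PDIA4 fell by 0.46, and CALR, the lectin chaperone calreticulin, fell by 0.29. The 3 that rose were ERO1L, an oxidase, HERPUD1, of protein disposal, and DERL2, of the same route, at 0.35, 0.22 and 0.18, the latter 2 each losing the call in 1 of 21 alternative fits (without replicate 3 and without the replicate term).

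The element through which ATF6 and XBP1 raise such chaperones was searched as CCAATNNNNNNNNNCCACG on both strands of the same windows. Only 27 of 35116 promoters (0.0769%) held it, or by gene 15 of 10856 tested genes (0.138%), and 6 of the 25 chaperone genes with a listed promoter did, which are CALR, CANX, CRELD2, HSP90B1, HSPA5 and PDIA6. The stretches below are of the 4 of these 6 genes that fell. They are again on the strand of the gene and end at or before its start, with the match in capitals. Binding, and any part of XBP1 or ATF6 in these falls, was not tested. In HSP90B1, which has 2 matches, the one nearer to the start is shown, and there and in CALR it reads on the other strand.
HSPA5 (chr9:125241351-125241450, minus strand): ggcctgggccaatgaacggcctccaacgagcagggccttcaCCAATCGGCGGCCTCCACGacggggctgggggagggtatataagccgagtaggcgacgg
HSP90B1 (chr12:103930280-103930379, plus strand): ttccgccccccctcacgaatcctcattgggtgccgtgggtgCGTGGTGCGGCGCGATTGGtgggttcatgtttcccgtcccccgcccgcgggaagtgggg
CALR (chr19:12938359-12938458, plus strand): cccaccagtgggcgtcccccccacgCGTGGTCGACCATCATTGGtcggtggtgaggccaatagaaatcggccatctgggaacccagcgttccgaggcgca
PDIA6 (chr2:10812813-10812912, minus strand): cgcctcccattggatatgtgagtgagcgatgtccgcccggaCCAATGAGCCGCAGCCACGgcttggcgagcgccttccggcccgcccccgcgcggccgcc
PDIA6, a disulfide isomerase, fell by 0.20 (adjusted p = 0.00266), while CANX changed by -0.05 (adjusted p = 0.312) and CRELD2 by -0.10 (adjusted p = 0.152), which did not pass the test. Chaperones of mitochondria and of the cytosol have lists of their own. Among mitochondrial chaperones and proteases 7 of 16 rose (5 to 11, the latter without replicate 1) and 2 fell, with HSPA9, the mitochondrial HSP70, from 953, 934, 995 and 1022 to 1496, 1281, 1370.3 and 1286 CPM (log2 0.48), and its partner DNAJA3 and the protease LONP1 at log2 0.51 and 0.44. Of 36 cytosolic heat shock genes 11 rose and 11 fell, with a median of 0.01. HSPB8, a small heat shock protein that works with BAG3 in disposal, went from 2.48, 1.84, 1.01 and 1.19 to 24.5, 11.3, 10.4 and 7.74 CPM, and the constitutive HSPA8 was not called (log2 -0.08, adjusted p = 0.114).

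**Figure D3:**
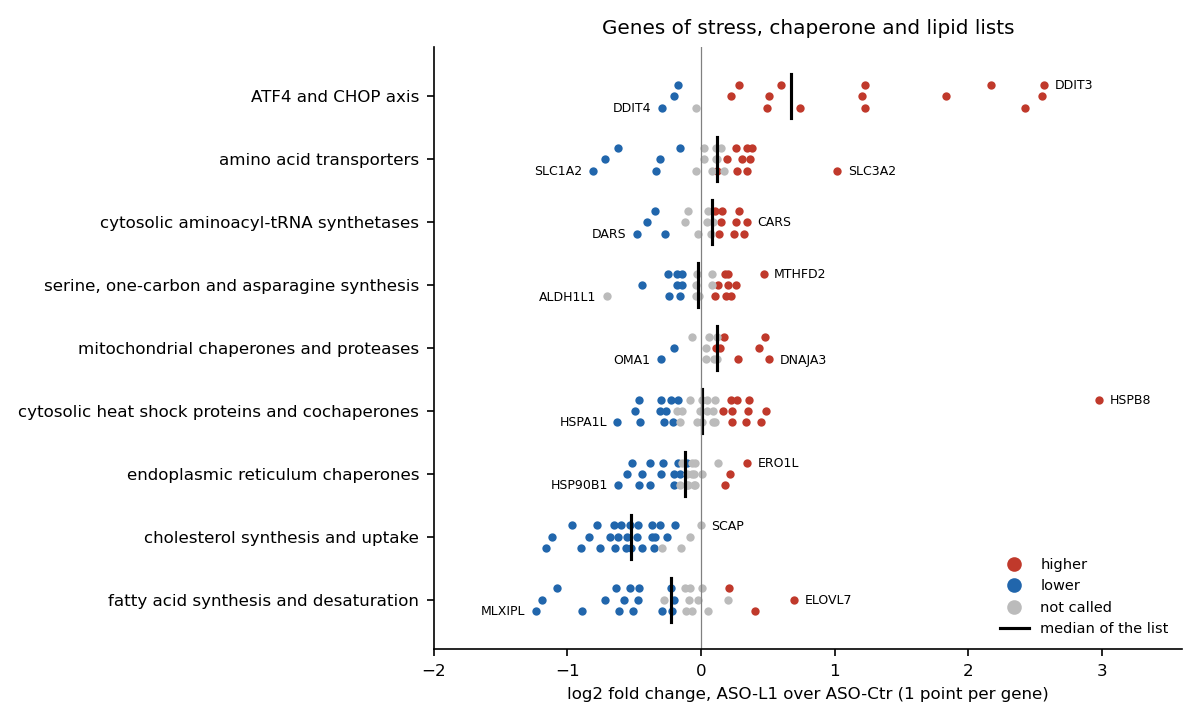
Log2 fold change of ASO-L1 over ASO-Ctr for each tested gene of 9 lists (1 point per gene, red called higher, blue called lower, grey not called), with a black bar at the median of each list and the lowest and highest gene named (for cholesterol synthesis, the highest). The ATF4 and CHOP axis reaches 2.57 with a median of 0.67, while the chaperones of the endoplasmic reticulum lie mostly below 0 and the cholesterol genes have no called rise.

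Targets of p53, the transcription factor that answers DNA damage and nucleolar stress, rose more often than they fell. Of 37 genes of the list 21 rose and 5 fell (3 to 5), with a median of 0.36, and 19 to 24 were called higher in the alternative fits. MDM2, the ligase that removes p53 and a direct target of it, went from 84.2, 85.5, 90.8 and 82.7 to 259, 167, 159.6 and 127 CPM (log2 1.02, SE 0.12). CDKN1A, the inhibitor p21, went from 10.6, 4.37, 4.16 and 4.41 to 48.8, 31.7, 24.9 and 15.8 CPM, with ASO-Ctr replicate 1 at more than 2 times any other control. PHLDA3, which blocks AKT, went from 29.0, 20.8, 19.6 and 18.7 to 100, 64.3, 53.4 and 47.4 CPM (log2 1.56), with sO-L1 at 20.2 to 30.0 CPM. GADD45A, a stress protein of DNA repair and demethylation, went from 11.69, 8.59, 10.96 and 10.5 to 65.5, 37.8, 36.7 and 26.3 CPM (log2 1.94).

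In the BCL2 family, which decides on the release of cytochrome c, members of the same class parted. Of 17 genes 8 rose (5 to 9) and 4 fell. The death inducers HRK, described above, BBC3 (PUMA) and BAX rose, the last 2 from 11.03 ± 1.99 to 28.9 ± 10.6 CPM and from 93.6 ± 11.2 to 120.1 ± 10.5 CPM (log2 1.34 and 0.36). The 4 that fell, BMF, BID, BCL2L11 (BIM) and PMAIP1 (NOXA), are death inducers as well, at log2 -0.81, -0.55, -0.41 and -0.12. The call of PMAIP1, itself a p53 target, was lost in 9 of 21 alternative fits (highest adjusted p = 0.192). Of G1 regulators 5 of 25 rose and 11 fell (6 to 11). RB1, the restrainer of E2F, was at 34.0, 50.4, 50.5 and 50.9 CPM in ASO-Ctr and 20.5, 28.9, 28.7 and 34.1 CPM in ASO-L1 (log2 -0.73), with groups that overlapped, and the kinase CDK6 fell by 0.42.

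Immediate early genes, which growth factor and stress kinases switch on within minutes, had the largest share of rises of the lists with at least 10 tested members, together with the ATF4 axis. Of 27 genes 21 rose and 1 fell (0 to 2), with a median of 0.61. FOSL1, a subunit of the AP-1 factor, went from 1.07, 0.931, 1.13 and 0.725 to 10.1, 6.33, 4.47 and 3.65 CPM (log2 2.59, SE 0.17), and its relative FOSL2 from 5.18, 5.47, 6.80 and 6.29 to 22.9, 18.6, 22.5 and 17.3 CPM (log2 1.77). JUN, their dimer partner, went from 60.8, 58.0, 68.6 and 69.6 to 149.6, 127, 146 and 117 CPM. FOS itself was the 1 that fell, from 46.1, 28.4, 54.0 and 46.4 to 29.6, 29.4, 41.9 and 38.5 CPM (log2 -0.30, adjusted p = 0.00549), with overlapping groups and a call lost in 1 of 21 alternative fits (highest adjusted p = 0.19). Among genes that FGF and ERK signalling induces, many of which feed back on it, 14 of 26 rose and 6 fell (3 to 6). EPHA2, a receptor of ephrins, went from 10.4, 12.3, 14.3 and 15.8 to 50.7, 36.0, 40.6 and 33.3 CPM (log2 1.59), and DUSP5, a phosphatase of nuclear ERK, from 9.25, 9.21, 10.1 and 9.30 to 24.4, 16.4, 21.4 and 17.4 CPM (log2 1.05). PHLDA1 went from 33.0, 41.4, 46.8 and 45.3 to 107, 86.2, 101 and 82.0 CPM (log2 1.18). For these 3 genes sO-L1 stood at 10.6 to 14.6, 7.42 to 9.09 and 39.1 to 55.2 CPM in turn, below every ASO-L1 library. FGF4, the ligand that the cells make themselves, fell by 0.55 on the log2 scale.

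Structural genes of the cytoskeleton rose more often than they fell. Of 44 actin and adhesion genes 20 rose and 6 fell (17 to 24 and 3 to 8 in the alternative fits). TAGLN and CNN1, actin-binding proteins of smooth muscle, went from 9.99 ± 1.46 to 26.1 ± 3.77 CPM and from 6.59 ± 1.27 to 14.3 ± 2.63 CPM (log2 1.39 and 1.11). TAGLN2, their widely made relative, went from 169, 151, 162 and 165 to 355, 301, 312 and 269 CPM (log2 0.93, SE 0.05). The actins ACTB and ACTG1 were not called, at log2 0.02 and 0.07, with 95% intervals of the fold of 0.972 to 1.06 and 1.01 to 1.10. ACTG1 was called higher without replicate 1 (adjusted p = 0.00279). Among intermediate filaments 10 of 24 rose and 3 fell. VIM, of mesenchymal and many cultured cells, went from 99.1, 108, 138 and 141 to 509.7, 371, 437 and 343 CPM, NES, of neural stem cells, from 414, 390.3, 451 and 444 to 546, 525, 601 and 565 CPM (log2 0.40), and LMNA, lamin A of the nuclear envelope, from 45.2, 36.9, 38.1 and 37.0 to 101, 67.7, 74.7 and 60.9 CPM (log2 0.93). Targets of the mechanical sensors YAP and SRF rose in 13 of 27 cases and fell in 6 (3 to 7), with AJUBA at log2 0.74. Annexins and S100 proteins, which bind calcium, rose in 7 of 17 cases and fell in 2 (1 to 2), with ANXA3 from 10.8 ± 2.70 to 26.8 ± 7.42 CPM and ANXA6 from 146 ± 5.20 to 93.5 ± 19.7 CPM.

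Matrix genes fell more often than they rose. Of 46 matrix genes 19 fell and 8 rose, with a median of -0.08. COL1A2, a chain of fibrillar collagen, went from 69.6, 68.03, 54.1 and 53.5 to 33.8, 41.9, 31.8 and 38.9 CPM (log2 -0.73, SE 0.08). Among the rises were TIMP3, an inhibitor of matrix proteases, from 2.57, 2.10, 2.99 and 2.17 to 9.59, 7.18, 8.83 and 7.45 CPM (log2 1.74), and SPARC, a collagen-binding glycoprotein, from 237 ± 23.2 to 322 ± 19.4 CPM. Of 33 junction genes and their regulators 10 fell and 7 rose, shares near those over all genes. CDH1, E-cadherin, which holds the epithelium of these colonies together, went from 217, 225, 191 and 194 to 141, 157, 136 and 148 CPM (log2 -0.50, SE 0.04, adjusted p = 1.41e-07), and GRHL2, a factor of the epithelial state, fell by 0.61 on the log2 scale. Of 27 integrins and partners 6 rose and 7 fell (4 to 9), again shares near those over all genes. ITGA6, part of the laminin receptor of stem cells, fell from 225, 234, 230.1 and 229 to 133, 153, 144 and 160.3 CPM (log2 -0.64), while ITGA5, of the fibronectin receptor, rose from 14.8, 13.8, 10.9 and 9.91 to 25.0, 21.2, 21.1 and 17.2 CPM (log2 0.78).

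Of noncoding RNAs, NEAT1, MALAT1, SNHG1 and GAS5 are described here. NEAT1, the RNA on which paraspeckles form, was at 35.6, 27.0, 26.7 and 27.0 CPM in ASO-Ctr, 32.7 to 36.5 CPM in sO-L1 and 211, 147, 122 and 88.2 CPM in ASO-L1 (log2 2.25, SE 0.12, adjusted p = 1.66e-09). MALAT1, of nuclear speckles, went from 143, 118, 142 and 142 to 396, 325, 221 and 327 CPM (log2 1.21, SE 0.13). SNHG1, a host of box C/D snoRNAs, went from 281, 276, 273 and 263 to 842, 516, 502 and 405 CPM (log2 1.01), and GAS5, another host, from 215, 214, 204 and 205 to 451, 336, 321 and 280.4 CPM (log2 0.71). In each of these 4 replicate 1 was the highest of the ASO-L1 libraries, and the groups did not overlap. Spliced transcripts of such hosts carry early stop codons and are broken down by nonsense-mediated decay while they are translated. The list of that pathway, which holds GAS5, SNHG12, SNHG15 and ZFAS1 as substrates beside its factors, had 11 of 22 genes higher and 4 lower. The 11 higher were these 4 substrates and otherwise factors, so that more factors rose than fell. The 4 lower were factors, NBAS, SMG9, SMG6 and DHX34, with NBAS from 46.1, 53.4, 52.4 and 49.6 to 18.7, 28.4, 27.1 and 31.0 CPM (log2 -0.94) and the others at log2 -0.43, -0.41 and -0.16, and the call of DHX34 was lost in 7 of 21 alternative fits.

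Most genes of lipid synthesis fell. Of 30 genes of cholesterol synthesis, uptake and export 26 fell and 0 rose, with a median of -0.53. The count was 25 to 28 in the 21 alternative fits, and the 0 rises hold for them as well, DESeq2 and limma-voom included, with 0 rises at an unadjusted p under 0.05. STARD4, a carrier of cholesterol within the cell, fell by 0.60. ABCA1, which exports cholesterol and is governed mainly by the LXR receptors, fell too, from 294, 274, 218 and 219 to 171, 169, 119 and 129 CPM (log2 -0.78, SE 0.05). Of 29 fatty acid genes 16 fell and 3 rose. FASN, fatty acid synthase, went from 1508, 1589.7, 1384 and 1411 to 817, 976, 943 and 1061 CPM (log2 -0.64, SE 0.05) and the elongase ELOVL6 from 230.0, 256, 257 and 257 to 113, 158, 165 and 175 CPM (log2 -0.72). The 3 that rose were ELOVL7, another elongase, CPT1A, which admits fatty acids to oxidation, and FADS3, at 0.69, 0.40 and 0.21, the last a call lost in 2 of 21 alternative fits.

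Sugar breakdown and hypoxia genes also fell more often than they rose, but less evenly. Of 25 glycolysis genes 13 fell (7 to 14) and 4 rose. HK2, a hexokinase, went from 180.3, 209, 189.9 and 173 to 128, 146, 144 and 142 CPM (log2 -0.42), and PDK1, which keeps pyruvate out of the mitochondria, from 86.4, 99.0, 70.7 and 62.3 to 38.9, 51.3, 40.0 and 44.8 CPM (log2 -0.84). The 4 that rose were PFKFB2, SLC2A3, a glucose importer, ENO2 and GAPDH, at 0.48, 0.46, 0.37 and 0.18. Without the replicate term in the model the number called lower was 8, without replicate 2 it was 7. Of 32 hypoxia targets 14 fell (8 to 15) and 7 rose (4 to 7). BNIP3L, which marks mitochondria for removal, went from 77.6, 87.8, 74.4 and 74.9 to 32.3, 44.6, 41.1 and 47.6 CPM (log2 -0.93) and KDM3A, a histone demethylase that hypoxia raises, fell by 0.55, while BHLHE40, a clock-related repressor, went from 11.4, 9.21, 7.34 and 6.49 to 29.2, 19.3, 20.2 and 17.0 CPM (log2 1.31). Of 12 metallothionein and zinc transport genes 8 fell (4 to 8) and 1 rose (0 to 1). MT1G, which binds zinc and copper, went from 145, 108, 112 and 119 to 81.1, 92.5, 72.0 and 92.9 CPM and MT1H from 85.7, 61.5, 56.3 and 65.6 to 48.3, 49.9, 34.5 and 51.0 CPM, and members of this family share nearly identical sequence, so that reads may be split between them. SLC39A10, a zinc importer without such copies, fell from 264, 259, 242 and 247 to 149, 153, 146 and 166 CPM (log2 -0.72). Antioxidant genes of NRF2 rose in 9 of 24 cases and fell in 3 (3 to 5). FTL, the light chain of ferritin, which stores iron, went from 679.8, 584, 587 and 617 to 1273, 1007, 894 and 854 CPM (log2 0.69) and SQSTM1, an autophagy receptor, from 51.6, 44.8, 42.1 and 42.4 to 110.5, 82.8, 78.9 and 71.8 CPM (log2 0.91).

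Nuclear genes of the respiratory chain and factors of translation rose more often than they fell. Of 75 nuclear genes of the respiratory chain 29 rose and 6 fell (3 to 8), a count of rises that ran from 17 to 44 in the alternative fits and was 44 without replicate 1. ATP5B, a catalytic subunit of ATP synthase, went from 1141, 1143, 1209.9 and 1268 to 1501, 1506, 1567 and 1520.2 CPM (log2 0.36) and NDUFS7, of complex I, rose by 0.62, while SDHD, of complex II, fell by 0.48. Of 13 mitochondrially encoded genes 0 rose (0 to 2) and 3 fell (1 to 8), MT-ND6, MT-CYB and MT-ATP6, at -0.20, -0.19 and -0.08. By edgeR 1 rose at an unadjusted p under 0.05, DESeq2 and limma-voom called 0, and without replicate 1 the counts were 1 and 5. The call of MT-ATP6 was lost in 13 of 21 alternative fits. Of 27 genes of the tricarboxylic acid cycle 8 rose and 8 fell (4 to 9). Large-subunit mitochondrial ribosomal proteins rose in 18 of 46 cases (8 to 26 in the alternative fits) and fell in 3. Among 46 initiation and elongation factors 23 rose and 8 fell (5 to 10). EEF2, which moves the ribosome along, went from 2944 ± 155 to 3462 ± 139 CPM and EEF1A1, which brings aminoacyl-tRNA, from 4815 ± 149 to 5722 ± 70.6 CPM. EIF1, which guards the choice of start codon, rose by 0.41 on the log2 scale, and EIF4G3, described above, and EIF3D, a cap-binding subunit of eIF3, were the largest falls, the latter from 231, 231, 238 and 243 to 95.5, 146, 139 and 164 CPM (log2 -0.80, SE 0.09). Proteasome genes rose in 12 of 41 cases (4 to 20) and fell in 4, and 20 rose without replicate 1.

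More genes of the interferon and nucleic acid sensing list fell than rose. Of 35 interferon and nucleic acid sensing genes 12 fell and 5 rose (3 to 6), with a median of 0.01. TRIM25, which activates the RNA sensor RIG-I, fell by 0.38 on the log2 scale, and SAMHD1, which depletes deoxynucleotides and restricts LINE1, went from 111, 108, 112 and 111 to 46.0, 59.3, 70.2 and 75.3 CPM (log2 -0.83, SE 0.08). IFITM1, an antiviral membrane protein that stem cells make without interferon, rose from 166, 132, 152 and 157 to 203, 189.7, 215 and 213 CPM (log2 0.44). Of 25 targets of NF-kappaB, cytokines and chemokines 11 rose and 3 fell. LIF, a cytokine that upholds pluripotency in the mouse, went from 5.74, 4.51, 4.00 and 4.84 to 18.4, 10.9, 11.1 and 7.79 CPM (log2 1.28) and TNFRSF12A, the receptor of TWEAK, from 17.2, 14.9, 11.8 and 13.5 to 68.4, 43.6, 42.6 and 31.9 CPM (log2 1.66). The 3 that fell were CXCR7, RELB and CXCL5, at -0.89, -0.85 and -0.67. The list of proteins that bind oligos and of RNase H also holds the noncoding RNA NEAT1, its largest rise (log2 2.25). Of its 26 tested members 12 rose and 3 fell (2 to 5), mostly by little. RNASEH1, the enzyme that cuts RNA paired with DNA, was at 45.7, 41.7, 42.2 and 44.4 CPM in ASO-Ctr and 51.8, 45.8, 48.8 and 48.0 CPM in ASO-L1 (log2 0.16, adjusted p = 0.0128), and 3 of 21 alternative fits did not call it. The 3 that fell, XRN2, XRCC5 and SSB, did so by 0.21, 0.17 and 0.16, and XRCC5 and SSB each lost the call in 1 of 21 alternative fits. Genes of lysosomes and autophagy rose in 15 of 45 cases and fell in 7 (3 to 9), with the protease CTSB from 41.3 ± 2.63 to 62.9 ± 5.76 CPM.

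More genes of DNA replication and repair fell than rose. Of 51 replication genes 21 fell and 5 rose (3 to 6), and 14 to 21 were called lower in the alternative fits. POLA2, the second subunit of polymerase alpha, went from 37.2, 41.0, 38.6 and 38.8 to 13.4, 22.9, 23.5 and 27.2 CPM (log2 -0.85, SE 0.11) and GINS2, of the replicative helicase, from 57.7, 53.8, 61.6 and 64.3 to 27.2, 37.3, 38.1 and 47.3 CPM (log2 -0.67). CDC7, the kinase that fires origins, fell by 0.56. Of 39 genes of homologous recombination and Fanconi repair 15 fell and 1 rose (0 to 1). BRIP1, the helicase partner of BRCA1, went from 37.5, 40.1, 43.2 and 44.3 to 14.8, 19.0, 20.8 and 24.2 CPM (log2 -1.07, SE 0.07, adjusted p = 1.06e-08), while sO-L1 stayed at 36.6 to 42.7 CPM. ATM, the kinase that senses breaks, fell from 61.8, 75.5, 64.4 and 66.6 to 43.3, 48.2, 41.4 and 45.4 CPM (log2 -0.59) and RAD50, which tethers the ends, by 0.50, while RAD51D rose by 0.25 (adjusted p = 0.0128, a call lost in 2 of 21 alternative fits). Of 48 mitotic genes 18 fell and 7 rose (4 to 8), with CENPE, a kinetochore motor, from 101, 120.3, 103 and 103 to 60.5, 80.3, 67.7 and 76.1 CPM (log2 -0.59) and the spindle motor KIF11 lower by 0.41. The medians over all tested members of these 3 lists were -0.09, -0.09 and -0.05, and genes that were not called are part of these medians.

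Among chromatin genes, remodelling factors fell more often than they rose. Of 44 remodelling genes 19 fell and 5 rose (2 to 6). ARID1B, a subunit of the BAF complex, went from 109, 118, 121 and 107 to 47.6, 65.0, 58.7 and 66.0 CPM (log2 -0.94, SE 0.06), SMARCA2, a motor of it, from 73.6, 63.4, 59.3 and 58.6 to 31.5, 33.3, 28.8 and 39.4 CPM (log2 -0.93), and BAZ2A, which silences ribosomal DNA in the nucleolus, from 208, 191, 180.0 and 176 to 97.2, 116, 103 and 113 CPM (log2 -0.81, SE 0.06). In PRC1, the Polycomb complex that places ubiquitin on histone H2A, 8 of 24 genes rose and 7 fell (1 to 7). BMI1, also named PCGF4, went from 6.81, 9.55, 14.04 and 11.1 to 36.9, 22.6, 27.0 and 21.3 CPM (log2 1.36, SE 0.17), and its alternatives in the same slot PCGF1 and PCGF5 rose from 6.75 ± 0.495 to 14.3 ± 3.03 CPM and from 8.47 ± 1.97 to 16.2 ± 1.67 CPM (log2 1.06 and 0.96). The lowest log2 change of a tested member was -0.57. The number called lower depended on the model, with 1 without the replicate term, 2 without replicate 3, 3 without replicate 2 and 4 without replicate 1. EZH2, the methyltransferase of PRC2, fell by 0.37 on the log2 scale. DNA methylation genes rose in 7 of 21 cases (4 to 9) and fell in 3. The 3 were DNMT3B, from 2637, 2639.7, 2358 and 2386 to 1568, 1932, 1680.5 and 1873 CPM (log2 -0.51), DNMT1, which copies methylation, and UHRF1, which guides it, at -0.25 and -0.54. Of 34 genes that restrict or silence LINE1 10 fell (4 to 10 in the alternative fits) and 1 rose (1 to 3). CBX5, the heterochromatin protein HP1 alpha, went from 238, 276, 281 and 273 to 203, 209, 220.2 and 222 CPM (log2 -0.32), and APOBEC3C, a deaminase, was the 1 that rose, by 0.44. L1TD1, descended from the first reading frame of LINE1, fell by 0.10 on the log2 scale, with an adjusted p = 0.0285 and the call lost in 10 of 21 alternative fits.

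In 4 signalling pathways of the early embryo, genes changed in both directions, as they did over all genes tested (21.2% higher and 23.1% lower). In the Nodal pathway 7 of 22 genes rose (4 to 10) and 4 fell. The antagonists parted, with CER1, described above, and FST higher, the latter from 31.2, 35.9, 47.9 and 51.1 to 69.9, 57.7, 78.2 and 73.0 CPM (log2 0.76), and LEFTY1 and LEFTY2 lower, at log2 -0.44 and -0.25. SMAD4, the shared transducer, fell by 0.31, and GDF3, a ligand, by 0.36. In the Notch pathway 6 of 17 genes rose and 2 fell. HES1, a repressor that Notch switches on, went from 1.67, 1.29, 3.49 and 3.91 to 8.61, 4.73, 9.62 and 9.16 CPM (log2 1.68) and JAG1, a ligand, from 57.8 ± 5.75 to 85.0 ± 10.8 CPM, while the receptor NOTCH3 and the DNA-binding RBPJ fell by 0.36 and 0.25. In the BMP pathway 5 of 18 rose (2 to 7) and 3 fell (2 to 5), with ID2 at log2 1.05 and its relative ID1 at -0.29, and the ligands BMP4 and BMP7 at -0.33 and -0.21. The call of BMP4 was lost without replicate 1 and without the ASO-Ctr library of replicate 1 or of replicate 4 (highest adjusted p = 0.121). In the WNT pathway 7 of 28 rose (4 to 8) and 8 fell, near the background. FZD7, a frizzled receptor, went from 477, 497, 510.2 and 517 to 281, 326, 346 and 393 CPM (log2 -0.58), and TCF7L1, which represses WNT targets, from 157, 163, 152 and 140.5 to 84.7, 117, 101 and 111 CPM (log2 -0.57).

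The central factors of pluripotency were not called. POU5F1 was at 1220.2, 1081, 1161 and 1209 CPM in ASO-Ctr and 1165, 1215, 1267 and 1305 CPM in ASO-L1, NANOG at 140.3, 124, 145 and 148 and 147, 133, 151 and 146 CPM, and SOX2 at 398, 434, 444 and 471 and 393, 397, 424 and 448 CPM. Their adjusted p-values were not under 0.05 (adjusted p = 0.128, 0.338 and 0.131), and the 95% intervals of the fold were 0.995 to 1.13 and 0.975 to 1.10 for POU5F1 and NANOG (ASO-L1 over ASO-Ctr) and 0.995 to 1.11 for SOX2 in the other direction (ASO-Ctr over ASO-L1). Without replicate 1 POU5F1 was called higher (log2 0.14, adjusted p = 9.45e-05) and SOX2 lower (log2 -0.08, adjusted p = 0.0238). Of 20 core genes 6 rose and 7 fell (4 to 9). TERF1, of the telomere, went from 789.8, 878, 740.5 and 764 to 461, 589, 490.2 and 529.9 CPM (log2 -0.62), and LIN28A, which blocks let-7, fell by 0.22. Of naive markers 8 of 20 tested rose (5 to 9) and 4 fell (2 to 4). KLF4 went from 21.0, 15.8, 20.9 and 22.9 to 59.4, 38.5, 48.3 and 43.9 CPM, while DPPA5, a marker of the same state, went from 12.2, 5.61, 5.48 and 6.43 to 3.71, 4.03, 2.92 and 3.07 CPM (log2 -1.04). KLF2 and KLF4 are on the immediate early list as well. Of primed markers 6 of 19 rose and 7 fell, with ZIC2 from 7.53, 7.42, 8.37 and 8.20 to 21.0, 18.5, 17.3 and 17.0 CPM and NLGN4X from 63.9, 75.5, 67.1 and 65.0 to 28.6, 42.6, 35.9 and 40.8 CPM.

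Marker lists of other lineages were summed per library, members under the filter included, and compared by an exact two-sided permutation test. It shuffled the 8 libraries freely, without the replicate number as a block. With 4 against 4 libraries its smallest possible p is 0.0286. The sums that reached this p had an adjusted p of 0.0514 over 9 lists, so that none passed. That adjusted value depends on how many lists reached the smallest p. The 14 primitive endoderm markers summed to 744 to 859 CPM in ASO-Ctr and 999.7 to 1199 CPM in ASO-L1 (exact permutation p = 0.0286, adjusted 0.0514). Most of that sum was APOE, a lipoprotein component, at 659 ± 62.0 and 949 ± 106 CPM, while the defining SOX17 had 1 read and GATA6 had 5 reads in all 8 libraries. Of the 7 tested members of this list 3 rose, APOE among them, and 2 fell (1 to 2), with log2 changes from -0.90 to 2.27. The 18 neuroectoderm markers summed to 419.7 to 480.5 CPM and 549 to 623 CPM with the same p, and here NES, at 425 ± 28.1 and 559 ± 32.5 CPM, made most of the sum, while SOX1 had 17 reads. Of the 9 tested neuroectoderm markers 4 rose, NES among them, and 1 fell, with log2 changes from -0.78 to 1.29. The 14 mesoderm markers summed to 27.3 to 34.2 CPM and 37.0 to 59.9 CPM with the same p, with MIXL1 and KDR as the 2 called members (log2 0.61 and 0.38), the latter a call lost in 8 of 21 alternative fits. Sums of core and of primed markers were lower in each ASO-L1 library, at 12174 to 12503 against 13488 to 13666 CPM and at 3372 to 3655 against 4033 to 4232 CPM, with the same p. DNMT3B, which is on both lists, was at 2505 ± 154 CPM in ASO-Ctr and 1764 ± 169 CPM in ASO-L1, the largest difference in CPM on each. LIN28A (2032 ± 81.8 and 1743 ± 91.9 CPM) and TERF1 (793 ± 59.9 and 518 ± 55.6 CPM) followed on the core list, while POU5F1, NANOG and SOX2 were not called. On the primed list VIM went the other way, from 122 ± 21.0 to 415 ± 74.4 CPM. Sums of naive, trophectoderm, amnion and fibroblast markers had overlapping ranges. Of 10 tested trophectoderm markers 5 rose (2 to 5) and the other 5 were not called. The most abundant of the 5 were the keratins KRT8, at 374 ± 49.6 and 414 ± 34.3 CPM with overlapping groups and a call lost in 3 of 21 alternative fits, and KRT18, at 84.5 ± 4.82 and 106 ± 4.88 CPM. Whether a changed number of cells of some kind or a changed level per cell lies behind such values cannot be told apart in bulk RNA.

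**Figure D4:**
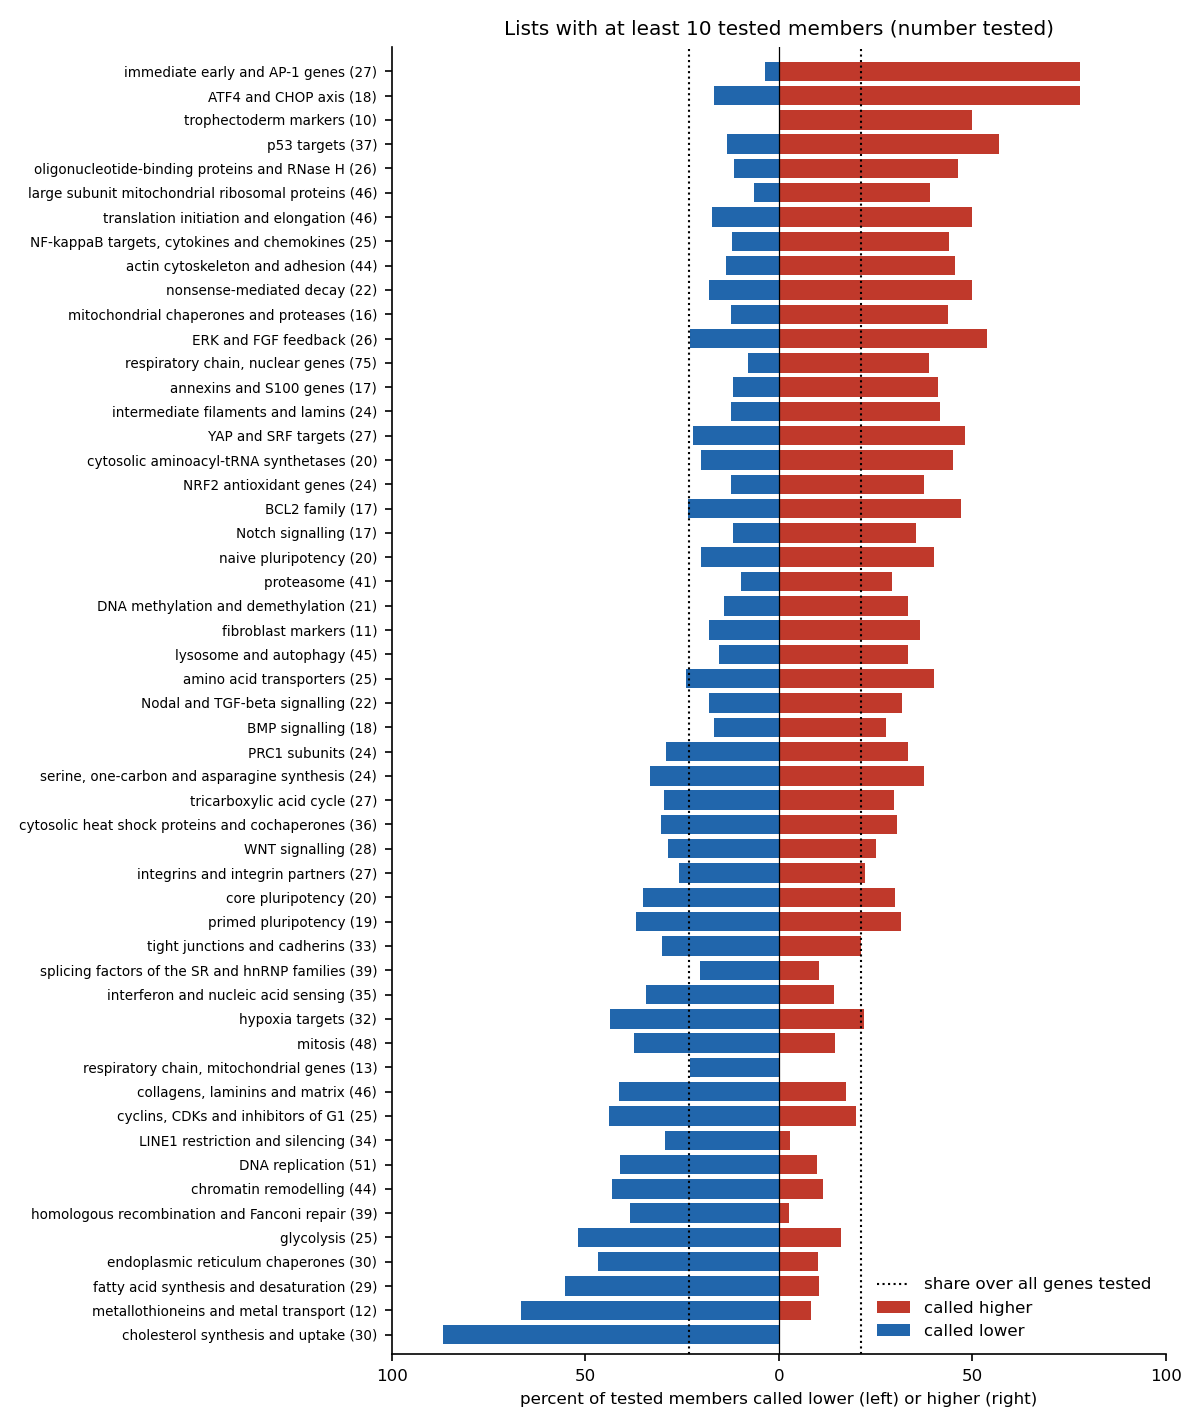
Percent of the tested members of each list called higher (red, to the right) or lower (blue, to the left) with ASO-L1, for the 53 lists with at least 10 tested members (number in brackets), with dotted lines at the shares over all genes (21.2% higher and 23.1% lower). The immediate early genes and the ATF4 axis lead at the top, and cholesterol synthesis, with 26 of 30 lower and 0 higher, stands at the bottom.

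Genes with the largest share of reads differed little between the groups. Of the 10 with the highest mean CPM that are not mitochondrially encoded, ACTB, HSP90AB1, ACTG1, HSPA8 and HNRNPA2B1 were not called, with log2 changes of 0.02, 0.05, 0.07, -0.08 and 0.02. Of the called ones, EEF1A1, EEF2 and HSP90AA1 were higher (0.25, 0.23 and 0.16) and LEFTY2 and TUBB were lower (-0.25 and -0.29). TUBB, a main beta-tubulin, was at 2960.4, 2929, 3033 and 3072 CPM in ASO-Ctr and 2042, 2483, 2578 and 2738 CPM in ASO-L1. Of the splicing factors of the SR and hnRNP families 4 of 39 rose (2 to 10) and 8 fell (4 to 8), shares below the background in both directions, though 10 rose without replicate 1. Of the genes often used to scale expression, ACTB was not called, while GAPDH was 1.13-fold higher (95% interval 1.06 to 1.21), a call lost in 2 of 21 alternative fits.

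The size of the differences varied between replicate numbers. Within replicate 1 the median size of the log2 difference between ASO-L1 and ASO-Ctr, over the 7652 called genes, was 0.527, against 0.340, 0.343 and 0.255 within replicates 2, 3 and 4. In replicate 1, 1351 called genes differed by over 2-fold in the called direction, and 591, 645 and 452 did in replicates 2, 3 and 4. The largest of the 4 differences was that of replicate 1 for 4740 called genes (61.9%). In all, 7280 of the called genes (95.1%) had the same sign in every replicate number. Replicate 1 also had the smallest libraries (22.8 and 27.4 against 29.5 to 41.5 M reads), and the part of depth in these differences was not tested. Without replicate 1 the model called 3717 genes higher and 3840 lower.

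Among called genes of at least 10 CPM, those with the widest range of within-replicate differences were AHNAK, BMI1, FLNC, HRK, PLA2G3 and RARRES2. PLA2G3, a secreted phospholipase, was at 14.9, 16.04, 13.9 and 14.2 CPM in ASO-Ctr and 3.93, 6.62, 7.35 and 9.82 CPM in ASO-L1, and its difference ran from -1.91 to -0.53 on the log2 scale between replicate numbers. RARRES2, the chemoattractant chemerin, ran from -1.49 to -0.17, with 14.3, 8.38, 12.3 and 12.8 CPM in ASO-Ctr and 5.08, 6.60, 9.69 and 11.4 CPM in ASO-L1. BMI1, described above, ran from 0.93 to 2.43.

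**Figure D5:**
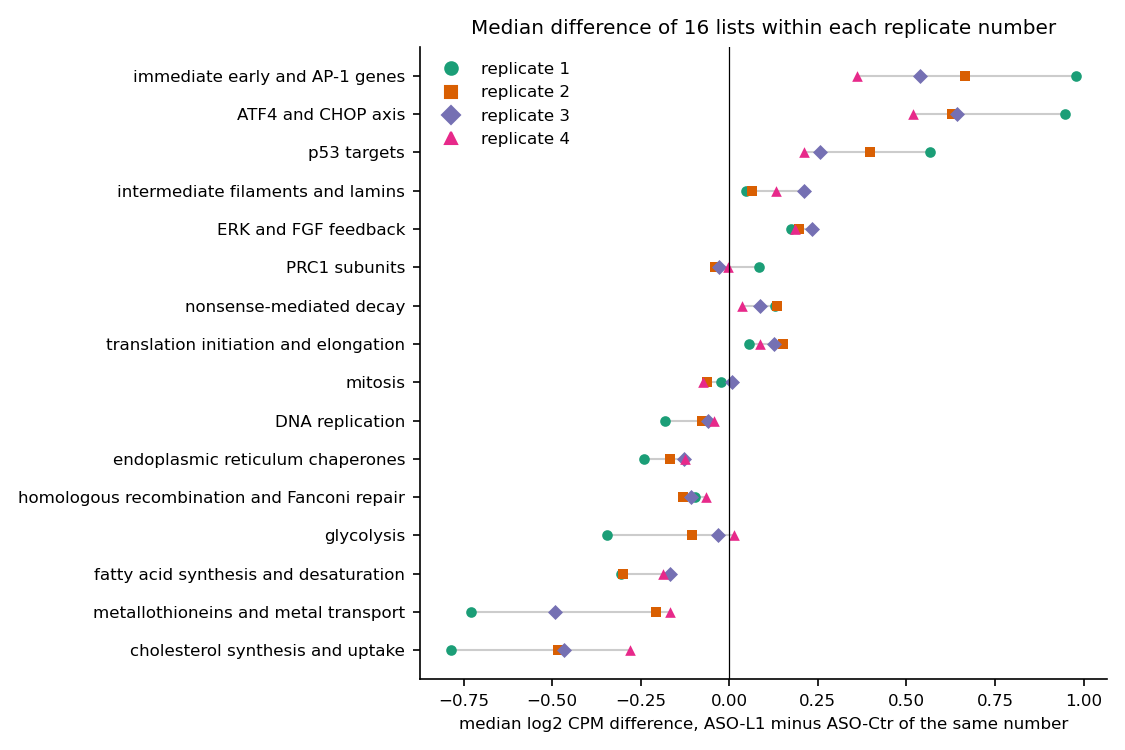
Median over the tested genes of 16 lists of the log2 CPM difference between ASO-L1 and ASO-Ctr of the same replicate number (1 marker per replicate, grey line from the lowest to the highest). Replicate 1 lies farthest from 0 for cholesterol synthesis, metallothioneins, the ATF4 axis, p53 targets and the immediate early genes, and the sign is the same in all 4 replicates for each of these.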

How the data were processed

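Poly(A) RNA of 12 libraries (3 groups of 4) had been sequenced, and the deposited table holds raw read counts per gene from which the authors removed duplicates, per the labels. The submitters' processing notes name Trim Galore 0.4.0, TopHat2 2.0.13, featureCounts of Subread 1.5.0 and, as build, hg19. Which annotation was counted is not stated there. The removal of duplicates can lower the counts of abundant genes, and reads of near-identical genes may be split between them. All count columns were mapped to samples. A batch-corrected log2 table and a table of another comparison were not used.

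Counts were fitted with edgeR 4.0.16 (R 4.3.3) by the quasi-likelihood F-test with group and replicate number as terms, on all 12 libraries, after TMM scaling and the filterByExpr filter (minimum count 10). P-values are two-sided and adjusted by Benjamini-Hochberg over the 17264 genes tested, and a gene was called at an adjusted p under 0.05. Folds are fitted log2 values, and the CPM given per library are unfitted values scaled by TMM. Differences within a replicate number used log2 CPM with a prior count of 2. Alternatives were no replicate term, 8 libraries alone, DESeq2 1.42.0, limma-voom (limma 3.58.1), 3 other scalings, 2 other filters and leaving out each replicate number or library. The script was tested on simulated counts.

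The replicate number was a block in the model, and libraries of the same number deviated together: over 10549 genes the correlation of their deviations from the group means was 0.216 to 0.725 in the 12 same-numbered pairs of libraries, against a median of -0.223 in other pairs. Deviations from a group mean cancel out within the group, so that positive values in same-numbered pairs push the other pairs below them and negative on average. The -0.223 is therefore no separate result. The labels do not say what the numbers stand for.

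The comparison, the gene lists and the rule for named genes were chosen with earlier results of these data known. The rule took the 8 largest rises and falls among called genes with the same sign in all 4 replicate numbers, in 3 classes of level split at 10 and 100 CPM, up to 3 called genes of each list with the lowest adjusted p, all called genes of a list and direction with 4 or fewer, the 6 genes of widest replicate range, the 10 most abundant genes that are not mitochondrially encoded, and always POU5F1, NANOG, SOX2, L1TD1, EZH2, ATF4, RNASEH1, MDM2, EEF1A1, ACTB, GAPDH and a few others. Some genes that the rule picks are not reported here. ASNS, ATF3, CALR, CANX, CEBPG, CHAC1, CRELD2, PDIA4, PDIA6, PPP1R15B, SLC7A5, SNHG12 and ZFAS1 fall outside it and were chosen after their values were seen. The table holds 26 symbols that a spreadsheet turned into dates, of which 22 were tested and none is named. Kinds of gene and promoters come from RefSeq tables of GRCh38.p14, matched by symbol, and 2217 tested symbols had no match.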

Additional observations from a re-analysis of the deposited data

Results flagged for a closer look

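In groups of 4 libraries, a sample was set apart where its gap to the nearest other library divided by the whole range of the group passed the 95% critical value of Dixon's test. Chance flags about 1 in 20 groups, and of the 509 groups examined, the CPM of each gene named and the medians of the gene lists, 31 (6.09%) were set apart. Of these 31, 24 were in replicate 1, which also had the shallowest libraries of both groups, and the part of depth was not tested. High in ASO-Ctr replicate 1 were CDKN1A at 10.6 CPM (next 4.41 CPM), DDIT4 at 72.6 CPM (next 28.4 CPM), DPPA5 at 12.2 CPM (next 6.43 CPM), FGF4 at 25.5 CPM (next 16.5 CPM), KRT8 at 448 CPM (next 352 CPM), LMNA at 45.2 CPM (next 38.1 CPM), MTHFD2 at 293 CPM (next 281 CPM), NEAT1 at 35.6 CPM (next 27.0 CPM) and TWIST1 at 0.728 CPM (next 0.215 CPM). DDIT4 is the inhibitor of mTOR whose call was unstable, and CDKN1A and NEAT1 are among the genes with large rises in ASO-L1. Low in the same library were DENND6A at 28.7 CPM (next 34.8 CPM), ELOVL6 at 230.0 CPM (next 256 CPM), RB1 at 34.0 CPM (next 50.4 CPM) and SLC36A4 at 28.4 CPM (next 33.1 CPM). In ASO-L1 replicate 1 the high values were APOE at 1105 CPM (next 912 CPM), EEF1A1 at 5827 CPM (next 5699 CPM), KRT8 at 465 CPM (next 400.2 CPM) and RBPJ at 374 CPM (next 339 CPM). The low values of that library were ATF6 at 32.5 CPM (next 39.3 CPM), BID at 4.76 CPM (next 7.47 CPM), CRELD2 at 26.7 CPM (next 31.9 CPM), GAPDH at 1755 CPM (next 1899 CPM) and HSPA5 at 868 CPM (next 1023 CPM). Each of BID, HSPA5, ATF6 and GAPDH is a called gene, and for GAPDH, which rose, the library lay nearer to the control than the rest of its group, while for the others it lay farther. Outside replicate 1 the values set apart were CENPE at 120.3 CPM in ASO-Ctr replicate 2 (next 103 CPM), DST at 205 CPM in ASO-Ctr replicate 2 (next 161 CPM), DUSP5 at 10.1 CPM in ASO-Ctr replicate 3 (next 9.30 CPM), MALAT1 at 118 CPM in ASO-Ctr replicate 2 (next 142 CPM), MT1H at 34.5 CPM in ASO-L1 replicate 3 (next 48.3 CPM), PDIA4 at 485 CPM in ASO-Ctr replicate 4 (next 499.6 CPM) and SLC16A3 at 7.23 CPM in ASO-L1 replicate 2 (next 3.46 CPM). Among the gene lists, the median log2 difference within replicate 1 stood apart for serine, one-carbon and asparagine synthesis (-0.0356, against 0.0225 to 0.0301 in the other replicate numbers) and for DNA methylation genes (0.245, against 0.0687 to 0.0923).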

How the results depend on the processing

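Without the replicate number as a block the model called 2829 genes higher and 3064 lower, and 77.0% of the calls of the model with the block remained with the same sign, the lowest share of any setting that kept all 12 libraries. With the 8 libraries alone 88.4% remained, with DESeq2 93.3%, with limma-voom 98.0% and with the 3 other scalings 97.3 to 99.5%. With 1 replicate number or 1 library left out, 2773 to 3730 genes were called higher, 3001 to 4119 lower, 356 to 504 over 2-fold higher and 174 to 370 over 2-fold lower, the last of these without ASO-L1 replicate 4, and the share of calls that remained was lowest without replicate 2 (74.6%). In 0 of the 21 fits was a called gene called with the opposite sign. With a minimum count of 50, which tests 13289 genes, 194 and 124 genes were over 2-fold higher and lower, since many such genes have low counts. Without any filter the counts were 514 and 285.

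Of 114 counts of list members, 54 moved by over 1.5 times in some fit, 32 of them without the block and 25 without replicate 2. Of 216 printed genes that were called, 20 lost the call without the block and 18 in at least 1 fit that left out libraries, and 0 changed sign. DDIT4 (15 of 21 fits), MT-ATP6 (13), L1TD1 (10), PMAIP1 (9) and KDR (8) lost it most often. PPP1R15B lost it in 4. Losses in 1 fit, without the block, were those of CHAC1, DERL2, FOS, HSP90AA1, ID1, LEFTY2, MT-ND6, RARRES2 and XRCC5. The cause of these losses was not tested. The share called differed with the level, on which the depth of a gene rests: 59.2% of genes at 100 CPM or more were called and 14.5% of those under 1 CPM.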
